A study of Mus musculus with 12 samples.

Results

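The knockdown of *Ddx5* was read here without added cytokines, in 3 libraries of ATDC5 cells with the hairpin shRNA-*Ddx5* against 3 libraries with the control hairpin shRNA-NC, all kept 6 h in medium with no stimulation. Members were the genes with at least 1 FPKM (fragments scaled to gene length and library total) in at least 3 of these 6 libraries, which kept 11754 of the 46731 genes in the table. The other 6 of the 12 libraries of the series, in which the same 2 lines received IL-1β with TNF-α, entered the fit only to share the estimate of spread and are quoted where an effect is set beside its value with cytokines.

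DDX5 is an ATP-dependent RNA helicase of the DEAD-box family that works in splicing, microRNA processing and transcription. ATDC5 is a mouse line derived from a teratocarcinoma that can be driven along the cartilage lineage, and in joints that lineage lays down matrix, answers growth factors such as BMP, TGF-beta, IGF and Wnt ligands, and can release chemokines and proteases.

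The labels give the shRNA-NC cells as wildtype and the shRNA-*Ddx5* cells as a DDX5 knockdown, and both lines took up a lentiviral cassette and were kept under puromycin as stable lines. Only 1 hairpin was used against *Ddx5*, and whether a line is 1 clone or a pool is not stated in the sources used here. An effect of the knockdown cannot be told apart from a difference between the 2 lines that arose when they were made. The study calls the 3 libraries of a group biologically independent, but both groups of 3 come from those 2 lines. RNA was selected for poly(A) tails. The depth was 14119199 to 19276520 fragments counted on genes. Within a group the libraries correlated at 0.972 to 0.992 on the log2 scale, and across the groups at 0.922 to 0.950.

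The labelled cell type was checked against its markers. Of 28 chondrocyte genes in the table only 8 were tested, of which 3 rose and 2 fell, and 2 up and 4 down after each library was rescaled to the same sum of FPKM. *Col2a1*, the collagen that defines cartilage, had 13.2, 15 and 9.09 FPKM in the shRNA-NC libraries and 0.952, 0.895 and 0.85 FPKM in the shRNA-*Ddx5* libraries (log2 fold change -2.8, SE 0.23, adjusted p = 4.8e-06). *Acan* and *Col10a1*, which mark mature and hypertrophic cartilage, did not exceed 0.301 FPKM in any of the 6 libraries, and *Sox9*, the lineage factor, had -0.19 on the log2 scale (adjusted p = 0.095, 0.00586 after that rescaling and 0.0284 without shRNA-*Ddx5* replicate 1). *Epcam*, *Cdh5*, *Ptprc*, *Myod1*, *Myog*, *Adipoq* and *Snap25*, some of the genes that define epithelial, endothelial, leukocyte, skeletal muscle, adipocyte and neuronal cells, were listed at 0 in all 6 libraries. None of 23 epithelial genes reached 1 FPKM in any library. Other defining genes were low but not all at 0. *Csf1r* of leukocytes had 0.0626, 0.203 and 0 FPKM in the shRNA-NC libraries and 0.486, 0.343 and 0.315 FPKM in the shRNA-*Ddx5* libraries. *Pparg* of adipocytes had 0, 0.0265 and 0.0179 FPKM in the shRNA-NC libraries and 0.229, 0.373 and 0.239 FPKM in the shRNA-*Ddx5* libraries. *Cdh1* and *Pecam1* did not exceed 0.0823 and 0.0599 FPKM, and *Fabp4* is given further on. In bulk RNA, fewer cells of a type and less RNA per cell cannot be told apart.

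The knockdown itself was read first. *Ddx5* (gene 13207, minus strand of chr11:106671181-106680011 in GRCm39 coordinates) had 325, 337 and 294 FPKM in the shRNA-NC libraries and 90.7, 118 and 99.9 FPKM in the shRNA-*Ddx5* libraries (log2 fold change -1.63, SE 0.10, adjusted p = 7.7e-07). The groups did not overlap. *Ddx17*, the closest paralog of *Ddx5*, had 46, 48.7 and 44.7 FPKM in the shRNA-NC libraries and 99.3, 92.2 and 95.9 FPKM in the shRNA-*Ddx5* libraries (log2 fold change 1.03, SE 0.09, adjusted p = 7.7e-06), so that it moved against *Ddx5*. With cytokines the rise of *Ddx17* was 1.52, and the difference between the media passed the threshold, at a value in medium minus cytokines of -0.49 (adjusted p = 0.043).

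A microRNA gene inside *Ddx5* moved with its host. *Mir3064* lies at chr11:106673519-106673585 on the same strand, within the span of *Ddx5* and sharing 1 base with exon 12 of the canonical transcript, so most of its 67 bases are intronic. It was chosen after its values were seen, and its mature products (RefSeq, build GRCm38.p6) are shown because the locus sits inside the silenced gene. Capitals mark the seed, bases 2 to 8.
mmu-miR-3064-5p: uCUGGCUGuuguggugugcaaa
mmu-miR-3064-3p: uGCCACACugcaacaccuuaca
The locus had 169, 189 and 189.72 FPKM in the shRNA-NC libraries and 30.9, 84.3 and 52.2 FPKM in the shRNA-*Ddx5* libraries (log2 fold change -1.8, SE 0.26, adjusted p = 2.0e-04). The groups did not overlap. In libraries selected for poly(A) tails, fragments of the hairpin and of its host cannot be told apart, so these values are no measure of the mature microRNA.

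Other helicases of the family moved both ways. Of 51 tested DEAD-box and DEAH-box genes 19 rose and 11 fell, with a median log2 fold change of 0.19, but 9 rose and 14 fell when each library was rescaled to the same sum of FPKM. Groups of genes that work with RNA beside DDX5 were read in the same way. Spliceosome core genes had 25 of 69 tested members up and 9 down (median 0.23), and SR proteins and hnRNPs, which guide splice site choice, had 19 of 76 tested members up and 16 down (median -0.03). After rescaling to the same sum the first had 17 up and 13 down and the second 4 up and 25 down. Of all 11754 tested genes, 26.4% rose and 22.5% fell as deposited, while 2115 rose and 3556 fell after this rescaling. The turn towards falls was thus general, and no turn particular to these lists is read from the counts. Genes of microRNA processing had 1 of 22 tested members up and 6 down, and 0 up and 8 down after rescaling. Ribosome biogenesis genes had 27 of 66 tested members up and 6 down (median 0.13), and 18 up and 15 down after rescaling.

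Across all tested genes, 3099 rose (26.4%) and 2648 fell (22.5%) at an adjusted p under 0.05 by limma, so 48.9% of genes passed and a list must be read against that share. With a log2 fold change of at least 1 in addition, 421 genes rose (3.58%) and 349 fell (2.97%). The 3 libraries of one group lay entirely above or below those of the other in 6403 genes (54.5%). Some genes stayed under 1 FPKM in every library of one group and passed the filter only through the other. Among them are *Tmtc2*, *Rspo3*, *Ly6a*, *Fmod*, *Nog*, *Notum*, *Igfbp7* and *Gstm2*, which rose, and *Col2a1*, *Dmrta2* and *Inhba*, which fell. *Acta2*, *Cebpd*, *Clu*, *C1s1* and *C1rl*, which rose, are also among them. The filter favours a call for such genes, so their adjusted p and their part in list counts are a description. The median log2 fold change of all tested genes was 0.03. Below, the amount by which a gene rose, or the value in parentheses behind a gene that fell, is its log2 fold change, shRNA-*Ddx5* over shRNA-NC, on log2(FPKM + 1), with the adjusted p from limma. The balance of the calls depended on the scaling between libraries. When each library was rescaled to the same sum of FPKM, the median of all genes moved to -0.10 and 2115 genes rose against 3556 that fell. Every list count given after this rescaling is to be read against that balance.

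**Figure D1:**
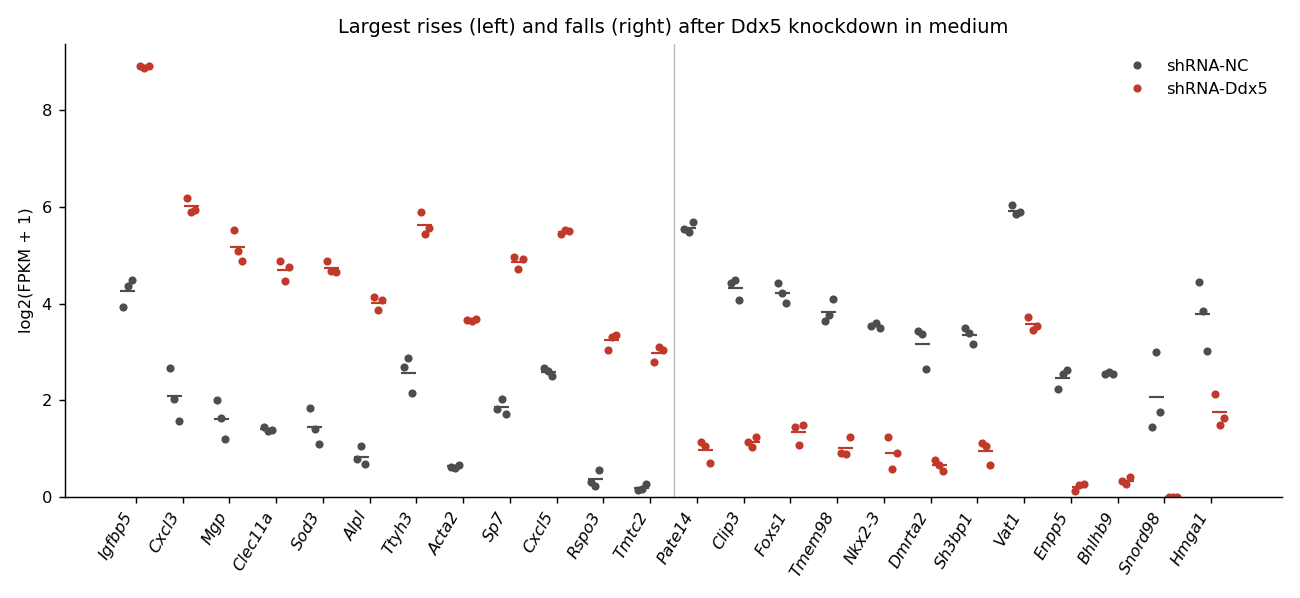
The 12 largest rises (left) and 12 largest falls (right) in log2 fold change among genes past the threshold, leaving out fibrillar collagens, histones, zinc fingers and unnamed loci. The vertical axis is log2(FPKM + 1), each point is 1 library and each bar the mean of 3 libraries. Only genes whose groups do not overlap were eligible, so the gap between the groups is a condition of the choice.

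The largest rises were led by secreted proteins and by factors of the bone lineage. *Clec11a*, a secreted growth factor also called osteolectin, had 1.71, 1.59 and 1.6 FPKM in the shRNA-NC libraries and 28.3, 21.2 and 26.2 FPKM in the shRNA-*Ddx5* libraries (log2 fold change 3.31, SE 0.12, adjusted p = 2.3e-08). *Alpl*, the phosphatase that lets bone matrix mineralise, had 0.708, 1.07 and 0.594 FPKM in the shRNA-NC libraries and 16.6, 13.5 and 15.7 FPKM in the shRNA-*Ddx5* libraries (log2 fold change 3.19, SE 0.23, adjusted p = 1.9e-06). *Sp7*, the transcription factor osterix needed for osteoblasts, had 2.52, 3.07 and 2.27 FPKM in the shRNA-NC libraries and 30.4, 25.4 and 29.2 FPKM in the shRNA-*Ddx5* libraries (log2 fold change 3.02, SE 0.14, adjusted p = 9.5e-08). All 3 genes were low in every control library and high in every knockdown library, and a lack of overlap was a condition of the choice. *Rspo3*, a secreted protein that strengthens Wnt signalling, was near 0 in the control line, with 0.243, 0.164 and 0.472 FPKM in the shRNA-NC libraries and 7.23, 8.92 and 9.26 FPKM in the shRNA-*Ddx5* libraries (log2 fold change 2.87, SE 0.12, adjusted p = 4.9e-08). *Ttyh3*, a membrane protein of the tweety family, had 5.47, 6.32 and 3.44 FPKM in the shRNA-NC libraries and 58.6, 42.3 and 46.5 FPKM in the shRNA-*Ddx5* libraries (log2 fold change 3.06, SE 0.20, adjusted p = 1.0e-06). *Tmtc2*, a membrane protein of the endoplasmic reticulum that adds mannose to other proteins, had 0.0937, 0.111 and 0.193 FPKM in the shRNA-NC libraries and 5.88, 7.55 and 7.24 FPKM in the shRNA-*Ddx5* libraries (log2 fold change 2.79, SE 0.10, adjusted p = 2.0e-08). The other 6 of the 12 were *Igfbp5*, *Cxcl3*, *Mgp*, *Sod3*, *Acta2* and *Cxcl5*.

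The largest falls held several transcription factors and membrane proteins. *Nkx2-3*, a homeobox factor, had 10.6, 11 and 10.3 FPKM in the shRNA-NC libraries and 1.35, 0.498 and 0.867 FPKM in the shRNA-*Ddx5* libraries (log2 fold change -2.64, SE 0.16, adjusted p = 6.2e-07). *Dmrta2*, a factor with a DM domain, had 9.76, 9.39 and 5.3 FPKM in the shRNA-NC libraries and 0.703, 0.567 and 0.44 FPKM in the shRNA-*Ddx5* libraries (log2 fold change -2.51, SE 0.21, adjusted p = 5.1e-06). *Vat1*, a membrane protein of vesicles and mitochondria, had 64.5, 56.6 and 58.2 FPKM in the shRNA-NC libraries and 12.3, 9.93 and 10.6 FPKM in the shRNA-*Ddx5* libraries (log2 fold change -2.35, SE 0.10, adjusted p = 4.9e-08). *Vat1* had the highest control level of the 12. *Hmga1*, a chromatin protein with AT hooks, had 20.9, 13.5 and 7.06 FPKM in the shRNA-NC libraries and 3.39, 1.79 and 2.11 FPKM in the shRNA-*Ddx5* libraries (log2 fold change -2.02, SE 0.29, adjusted p = 1.9e-04), and its 3 control libraries spread from 7.06 to 20.9. *Sh3bp1*, a GTPase-activating protein, fell (-2.42), *Enpp5*, an ectoenzyme, (-2.26) and *Bhlhb9* (-2.22). *Pate14*, *Clip3*, *Foxs1*, *Tmem98* and the small nucleolar RNA gene *Snord98* complete the list.

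The largest changes in mean FPKM lay in abundant RNAs of general cell functions. *Fth1*, the heavy chain of the iron store ferritin, had 716, 717 and 733 FPKM in the shRNA-NC libraries and 1435, 1197 and 1304 FPKM in the shRNA-*Ddx5* libraries (log2 fold change 0.86, SE 0.12, adjusted p = 1.6e-04). *Tuba1b*, an alpha-tubulin, had 686, 718 and 586 FPKM in the shRNA-NC libraries and 1116, 1066 and 1196 FPKM in the shRNA-*Ddx5* libraries (log2 fold change 0.77, SE 0.11, adjusted p = 1.9e-04). *Bgn*, the small proteoglycan biglycan, had 453, 509 and 558 FPKM in the shRNA-NC libraries and 899, 900.38 and 962 FPKM in the shRNA-*Ddx5* libraries (log2 fold change 0.86, SE 0.09, adjusted p = 3.0e-05). Each of these was higher in all 3 knockdown libraries, which was fixed by the choice, as only genes without overlap were eligible. The largest falls in absolute FPKM were those of chaperones and translation genes. *Hspa8*, a constitutive HSP70, had 1629, 1689.7 and 2047 FPKM in the shRNA-NC libraries and 958, 937 and 1055 FPKM in the shRNA-*Ddx5* libraries (log2 fold change -0.86, SE 0.20, adjusted p = 0.0041). *Hsp90ab1*, a constitutive HSP90, had 2297, 2201 and 2477 FPKM in the shRNA-NC libraries and 1599.9, 1395 and 1542 FPKM in the shRNA-*Ddx5* libraries (log2 fold change -0.62, SE 0.12, adjusted p = 0.0015). *Tpt1*, a translationally controlled protein whose RNA has a pyrimidine tract at its start, had 1462, 1386 and 1843 FPKM in the shRNA-NC libraries and 988, 803 and 954 FPKM in the shRNA-*Ddx5* libraries (log2 fold change -0.77, SE 0.15, adjusted p = 0.0016). In none of these 3 genes did the groups overlap, again a condition of the choice. *Rps27*, a ribosomal protein, had 825, 894 and 658 FPKM in the shRNA-NC libraries and 449, 536 and 249.89 FPKM in the shRNA-*Ddx5* libraries (log2 fold change -1.0, SE 0.28, adjusted p = 0.013).

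Also on the list were *Hsp90aa1* (log2 fold change -0.77), the elongation factor *Eef2* (-0.45), the intermediate filament *Vim* (-0.41), the ribosomal proteins *Rpl13a* (-0.41) and *Rpl10a* (-0.4), and, rising, the isomerase *Ppia* (0.55), the cytokine *Mif* (0.65) and 4 mitochondrial genes given further on. With the 6 medium libraries fitted alone, the adjusted p of *Eef2* was 0.0526 and that of *Vim* 0.0779. The calls of *Ppia*, *Mif*, *Rpl10a* and *Rpl13a* depended on single libraries. Without shRNA-*Ddx5* replicate 1 the adjusted p was 0.0696 for *Ppia* and 0.121 for *Mif*. Without shRNA-NC replicates 1 or 2 it was 0.0798 or 0.0505 for *Ppia* and 0.118 or 0.0504 for *Rpl13a*, and without shRNA-NC replicate 3 it was 0.106 for *Mif*. Without shRNA-*Ddx5* replicates 2 or 3 it was 0.0532 or 0.0541 for *Rpl10a* and 0.108 or 0.061 for *Rpl13a*. Genes such as *Ppia*, *Fth1*, *Tpt1*, *Hspa8*, *Rps27*, *Rpl13a* and *Rpl10a* have near-identical processed copies in the genome, and how shared fragments were counted is not given in the sources used here, so their levels are uncertain.

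**Figure D2:**
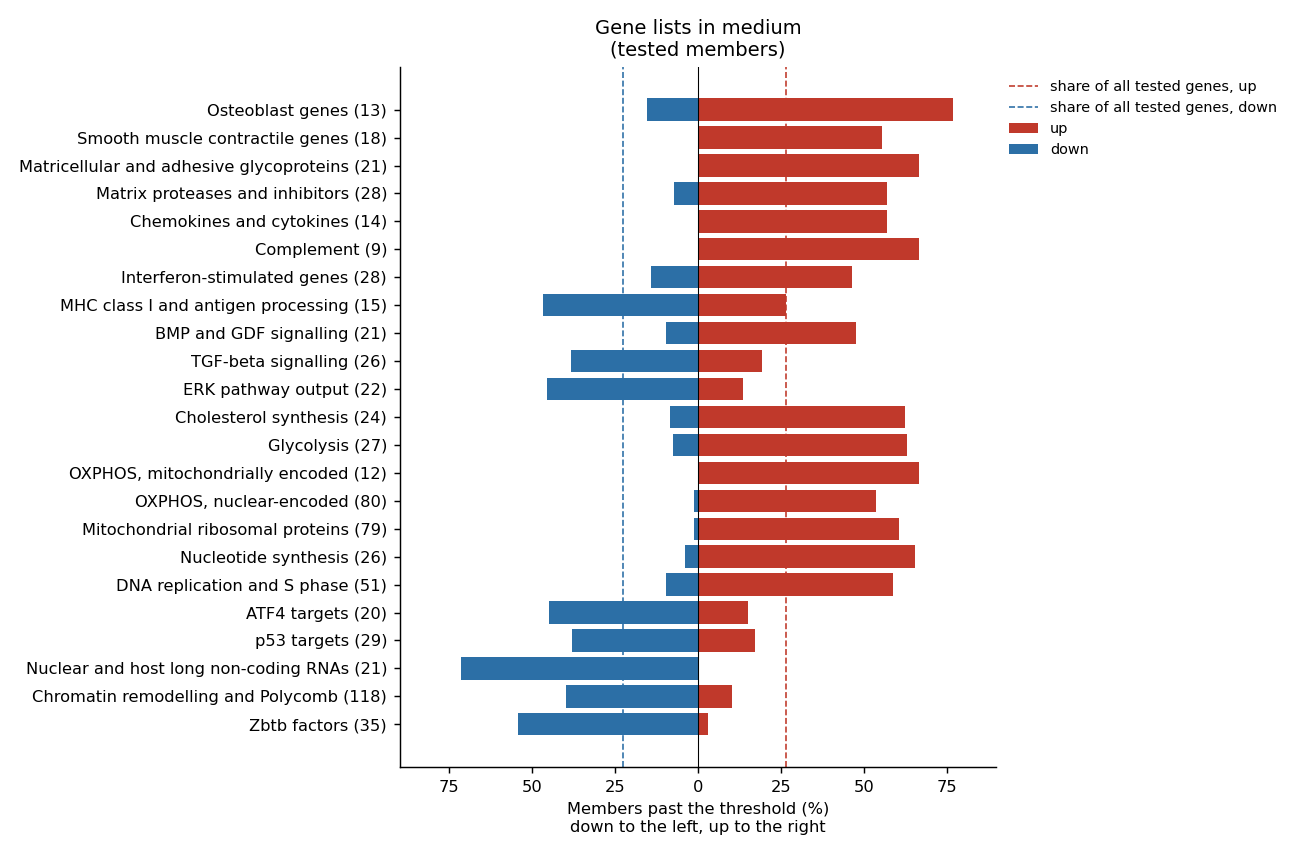
Share of tested members of 23 gene lists that passed an adjusted p of 0.05 upwards (to the right) or downwards (to the left). The number of tested members stands in parentheses, and the broken lines are the shares of all tested genes, 26.4% up and 22.5% down. Osteoblast genes reach furthest up and nuclear and host long non-coding RNAs furthest down.

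Bone-lineage genes rose as a group. Osteoblast genes had 10 of 13 tested members up and 2 down, 6 of them up by 1 or more, and a median log2 fold change of 0.85 against 0.03 for all genes. Their summed FPKM was 279.1 to 325 in the shRNA-NC libraries and 731 to 773 in the shRNA-*Ddx5* libraries. Most of the rise in this sum was that of *Sparc*, given below, so the sum says little about the other members. Besides *Sp7* and *Alpl*, *Dlx5*, a homeobox factor of skeletal development, had 9.62, 11 and 8.3 FPKM in the shRNA-NC libraries and 43.5, 38 and 40.1 FPKM in the shRNA-*Ddx5* libraries (log2 fold change 1.97, SE 0.14, adjusted p = 1.8e-06). Its neighbour and partner *Dlx6* rose by 1.28. *Runx2*, the factor that starts the lineage, had 9.68, 11 and 11.1 FPKM in the shRNA-NC libraries and 15.4, 18.2 and 17.5 FPKM in the shRNA-*Ddx5* libraries (log2 fold change 0.63, SE 0.10, adjusted p = 4.0e-04). *Sparc*, a collagen-binding protein of bone, had 129.64, 134 and 141 FPKM in the shRNA-NC libraries and 536, 481 and 512 FPKM in the shRNA-*Ddx5* libraries (log2 fold change 1.91, SE 0.09, adjusted p = 1.4e-07), and *Spp1*, the matrix protein osteopontin, rose by 1.32. *Omd*, a keratan sulfate proteoglycan of bone, went the other way with 7.71, 9.86 and 14.1 FPKM in the shRNA-NC libraries and 2.12, 4.54 and 4.76 FPKM in the shRNA-*Ddx5* libraries (log2 fold change -1.28, SE 0.26, adjusted p = 0.0018). *Bglap*, the late marker osteocalcin, did not exceed 0.463 FPKM in any library.

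Contractile genes of smooth muscle had 10 of 18 tested members up and 0 down, a median of 0.49, and 9 up and 2 down after rescaling each library to the same sum of FPKM. *Cnn2*, a calponin, had 51, 47.5 and 42.9 FPKM in the shRNA-NC libraries and 152, 121 and 135 FPKM in the shRNA-*Ddx5* libraries (log2 fold change 1.51, SE 0.17, adjusted p = 4.2e-05). *Hspb1*, a small heat shock protein that binds actin, had 31.8, 33.5 and 29.5 FPKM in the shRNA-NC libraries and 87.1, 60.6 and 73.5 FPKM in the shRNA-*Ddx5* libraries (log2 fold change 1.18, SE 0.12, adjusted p = 2.1e-05). *Tpm4*, *Vcl*, *Mylk* and *Tpm1* rose by 0.81, 0.68, 0.65 and 0.62. *Acta2*, a defining gene of the list and its largest rise, had 0.531, 0.521 and 0.587 FPKM in the shRNA-NC libraries and 11.7, 11.5 and 11.9 FPKM in the shRNA-*Ddx5* libraries (log2 fold change 3.04, SE 0.24, adjusted p = 3.3e-06 by limma). It passed the filter only through shRNA-*Ddx5*. *Myh11*, the other defining gene, did not exceed 0.0592 FPKM in any library.

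Fibroblast and tenocyte genes were mixed, with 7 of 17 tested members up and 2 down and a median of 0.15, but 5 rose by 1 or more. *Ly6a*, the stem cell antigen Sca-1, had 0.242, 0 and 0.199 FPKM in the shRNA-NC libraries and 4.61, 4.81 and 3.76 FPKM in the shRNA-*Ddx5* libraries (log2 fold change 2.23, SE 0.15, adjusted p = 1.0e-06). *Prrx2*, a homeobox factor of limb mesenchyme, had 10.3, 10.6 and 6.56 FPKM in the shRNA-NC libraries and 45.2, 39.4 and 41.3 FPKM in the shRNA-*Ddx5* libraries (log2 fold change 2.11, SE 0.34, adjusted p = 4.2e-04), whereas its paralog *Prrx1* fell (-0.74). *Snai2*, a repressor active in epithelial to mesenchymal change, rose by 1.26 and *Osr1*, a factor of loose connective tissue, by 1.05. The defining genes *Pdgfra* and *Thy1* lay under the filter, and *Scx* was not past the threshold (0.24, adjusted p = 0.28). Summed FPKM of this list was 2817 to 3570.0 in shRNA-NC and 2469 to 3037 in shRNA-*Ddx5* libraries. Among 8 tested adipocyte genes 4 rose and 2 fell. *Cebpd*, an early adipogenic factor, rose by 1.44 and *Dgat2*, an enzyme of triglyceride synthesis, fell (-0.77), while *Pparg* stayed below 0.373 FPKM. Of 8 neuronal genes 4 rose and 3 fell, with *Ncam1*, an adhesion molecule, at 1.24 and the neurotrophin receptor *Ntrk3* at -1.1.

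Among secreted and surface proteins, matricellular and adhesive glycoproteins had 14 of 21 tested members up and 0 down (median 0.51). *Tnn*, tenascin-W of developing bone, had 19, 20.6 and 20.8 FPKM in the shRNA-NC libraries and 129.97, 111 and 119 FPKM in the shRNA-*Ddx5* libraries (log2 fold change 2.52, SE 0.18, adjusted p = 1.5e-06). *Tnc*, tenascin-C of injured matrix, had 0.923, 1.09 and 0.997 FPKM in the shRNA-NC libraries and 7.51, 7.21 and 8.14 FPKM in the shRNA-*Ddx5* libraries (log2 fold change 2.1, SE 0.16, adjusted p = 2.1e-06). *Ccn4*, a Wnt-induced matricellular protein, had 4.18, 4.64 and 5.61 FPKM in the shRNA-NC libraries and 11.1, 12.3 and 11.9 FPKM in the shRNA-*Ddx5* libraries (log2 fold change 1.14, SE 0.09, adjusted p = 4.0e-06). All 3 were higher in every knockdown library. *Postn*, the matrix protein periostin, rose by 0.85. When each library was rescaled to the same sum, the list had 11 up and 1 down.

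Small leucine-rich proteoglycans with *Mgp*, which dress collagen fibrils or hold back mineral, had 5 of 7 tested members up and 1 down. *Fmod*, fibromodulin, had 0.124, 0.0473 and 0.0213 FPKM in the shRNA-NC libraries and 2.59, 2.07 and 2.29 FPKM in the shRNA-*Ddx5* libraries (log2 fold change 1.64, SE 0.09, adjusted p = 2.8e-07), and *Aspn*, asporin, had 2.97, 4.12 and 5.06 FPKM in the shRNA-NC libraries and 7.85, 17.2 and 13.1 FPKM in the shRNA-*Ddx5* libraries (log2 fold change 1.4, SE 0.23, adjusted p = 5.0e-04). Elastic fibre genes had 3 of 14 tested members up and 2 down. *Fbln5*, a fibulin that assembles elastin, rose by 1.56 and *Emilin2* by 1.81, whereas *Lox*, the oxidase that cross-links collagen and elastin, had 203, 231 and 264 FPKM in the shRNA-NC libraries and 89.3, 116 and 112 FPKM in the shRNA-*Ddx5* libraries (log2 fold change -1.13, SE 0.12, adjusted p = 1.8e-05).

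Matrix proteases and their inhibitors had 16 of 28 tested members up and 2 down, with 7 up by 1 or more and none down by as much. *Plau*, the urokinase that activates plasminogen, had 5.84, 4.69 and 5.86 FPKM in the shRNA-NC libraries and 18.5, 19.2 and 20.3 FPKM in the shRNA-*Ddx5* libraries (log2 fold change 1.66, SE 0.11, adjusted p = 1.0e-06). *Timp1*, an inhibitor of matrix metalloproteinases, had 48, 47.5 and 29.8 FPKM in the shRNA-NC libraries and 137, 102 and 112 FPKM in the shRNA-*Ddx5* libraries (log2 fold change 1.49, SE 0.18, adjusted p = 6.4e-05). Both were higher in every knockdown library than in every control library. *Adam23*, a disintegrin, rose by 1.31, *Adamts2*, the procollagen N-proteinase, by 1.29 and *Htra1*, a secreted serine protease, by 1.25. *Adam9* fell (-0.81) and *Adam15* (-0.77). Of 7 tested integrins 3 rose and 3 fell, with the collagen receptor *Itga11* at 1.44 and the laminin receptor *Itga6* at -1.03. Of 15 cadherins and protocadherins 4 rose and 3 fell, led by *Pcdh18* (1.24) and *Pcdh19* (1.15).

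**Figure D3:**
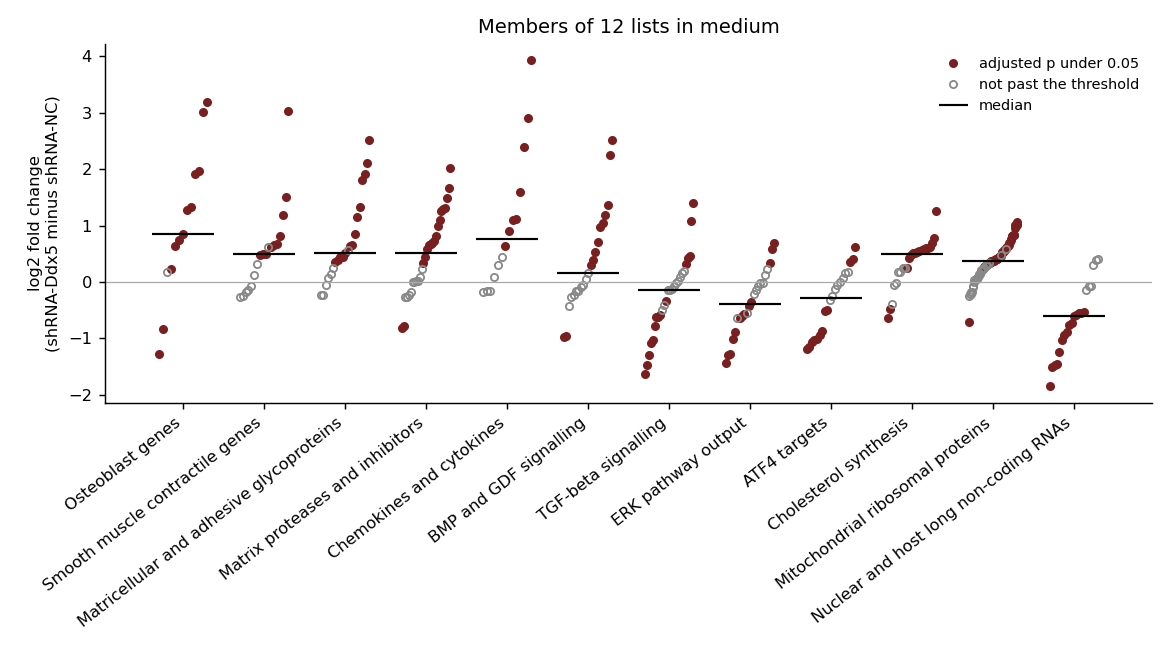
Log2 fold changes of the tested members of 12 lists, each point 1 gene. Filled points passed an adjusted p of 0.05 by limma, open points did not, and the bar is the median of the list, from -0.61 for nuclear and host long non-coding RNAs to 0.85 for osteoblast genes.

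In the BMP and GDF list of growth factor signalling, 10 of 21 tested members rose and 2 fell, and 8 up and 5 down after rescaling to the same sum. The 2 largest rises were secreted inhibitors of BMP. *Nog*, noggin, had 0.202, 0.0256 and 0.277 FPKM in the shRNA-NC libraries and 5.09, 5.1 and 6.81 FPKM in the shRNA-*Ddx5* libraries (log2 fold change 2.51, SE 0.14, adjusted p = 3.4e-07). *Grem1*, gremlin, had 5.36, 6.25 and 7.55 FPKM in the shRNA-NC libraries and 29.8, 41.6 and 31.8 FPKM in the shRNA-*Ddx5* libraries (log2 fold change 2.26, SE 0.31, adjusted p = 1.4e-04). *Chrdl1*, another inhibitor, rose by 1.37. The ligand *Bmp4* had 36.7, 39.1 and 39.8 FPKM in the shRNA-NC libraries and 92, 81.9 and 93.7 FPKM in the shRNA-*Ddx5* libraries (log2 fold change 1.19, SE 0.11, adjusted p = 1.1e-05), and *Smad6*, an inhibitor that BMP induces, rose by 0.98. The receptor *Bmpr2* fell (-0.98). The median of this list was 0.15, and near 0 when each library was rescaled to the same sum of FPKM.

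TGF-beta signalling had 5 of 26 tested members up and 10 down, and 3 up and 13 down after rescaling to the same sum. *Inhba*, the activin A subunit, had 3.87, 3.8 and 3.51 FPKM in the shRNA-NC libraries and 0.397, 0.667 and 0.511 FPKM in the shRNA-*Ddx5* libraries (log2 fold change -1.63, SE 0.12, adjusted p = 1.9e-06). *Fstl3*, a secreted activin antagonist, had 6.93, 7.69 and 7.22 FPKM in the shRNA-NC libraries and 2.15, 1.96 and 1.87 FPKM in the shRNA-*Ddx5* libraries (log2 fold change -1.47, SE 0.09, adjusted p = 7.7e-07). *Skil*, a repressor of SMADs that TGF-beta induces, fell (-1.3), and the activin receptors *Acvr2b* and *Acvr1b* fell (-1.08 and -1.03). The ligand gene *Tgfb1* rose, with 3.64, 3.45 and 2.88 FPKM in the shRNA-NC libraries and 11.8, 9.76 and 9.55 FPKM in the shRNA-*Ddx5* libraries (log2 fold change 1.39, SE 0.22, adjusted p = 4.3e-04), and the ligand gene *Tgfb2* rose by 1.08. Only part of the 10 falls and 5 rises is named here, and *Acvr1b* was named after its values were seen. No pattern by branch of the pathway is read from them.

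Insulin-like growth factor genes had 7 of 15 tested members up and 4 down, with a median of 0.01 that was -0.13 after rescaling to the same sum. Besides *Igfbp5*, the binding proteins *Igfbp7* and *Igfbp3* rose. *Igfbp7* had 0.28, 0.203 and 0.274 FPKM in the shRNA-NC libraries and 3.61, 3.01 and 3.61 FPKM in the shRNA-*Ddx5* libraries (log2 fold change 1.81, SE 0.16, adjusted p = 6.6e-06). *Igfbp3* had 95.9, 107 and 117 FPKM in the shRNA-NC libraries and 327, 329 and 353 FPKM in the shRNA-*Ddx5* libraries (log2 fold change 1.65, SE 0.11, adjusted p = 8.1e-07). *Pappa2*, a protease that cleaves such binding proteins, rose by 1.23. *Igf2bp2*, an RNA-binding protein, had 13.3, 14.3 and 13.3 FPKM in the shRNA-NC libraries and 4.8, 4.62 and 5.51 FPKM in the shRNA-*Ddx5* libraries (log2 fold change -1.3, SE 0.11, adjusted p = 4.4e-06), and the receptor *Igf1r* fell (-0.61).

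The Wnt list had 12 of 25 tested members up and 6 down, but 8 up and 8 down after rescaling to the same sum. Next to *Rspo3*, *Notum*, an enzyme that inactivates Wnt ligands, had 0.207, 0.24 and 0.426 FPKM in the shRNA-NC libraries and 2.89, 2.5 and 2.52 FPKM in the shRNA-*Ddx5* libraries (log2 fold change 1.5, SE 0.20, adjusted p = 1.1e-04). The receptor *Fzd5* rose by 1.22, and *Lgr4*, a receptor for R-spondins, by 1.12. *Apc*, a scaffold of the complex that degrades beta-catenin, fell (-1.18) and the secreted *Dkk3* (-1.22). In the Hedgehog and PTHrP list 6 of 14 rose and 4 fell, and the balance turned to 4 up and 5 down after rescaling to the same sum. *Foxf1*, a factor induced by Hedgehog, had 3.98, 3.72 and 2.47 FPKM in the shRNA-NC libraries and 13.8, 12.2 and 12.2 FPKM in the shRNA-*Ddx5* libraries (log2 fold change 1.66, SE 0.17, adjusted p = 1.8e-05), and *Pth1r*, the receptor of parathyroid hormone and PTHrP, rose by 1.27. *Cdon*, a co-receptor for Hedgehog, rose by 1.04. Of 7 tested Notch genes 3 rose and 1 fell. The largest rise was that of *Lfng*, an enzyme that adds sugar to Notch, with 2.46, 2.22 and 1.4 FPKM in the shRNA-NC libraries and 9.77, 7.13 and 7.07 FPKM in the shRNA-*Ddx5* libraries (log2 fold change 1.57, SE 0.18, adjusted p = 3.8e-05).

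Of 22 tested output genes of the ERK pathway 10 fell, 3 rose and 9 did not pass, with a median of -0.39. *Jun*, a subunit of AP-1, had 19.7, 16.7 and 15.8 FPKM in the shRNA-NC libraries and 6.62, 5.16 and 5.73 FPKM in the shRNA-*Ddx5* libraries (log2 fold change -1.43, SE 0.11, adjusted p = 2.1e-06). *Dusp4*, a phosphatase that ERK induces and that acts on ERK, had 4.68, 4.34 and 3.4 FPKM in the shRNA-NC libraries and 1.2, 1.23 and 0.937 FPKM in the shRNA-*Ddx5* libraries (log2 fold change -1.27, SE 0.12, adjusted p = 1.0e-05). *Nr4a1*, an early nuclear receptor, had 4.3, 4.78 and 3.16 FPKM in the shRNA-NC libraries and 1.16, 0.922 and 1.12 FPKM in the shRNA-*Ddx5* libraries (log2 fold change -1.29, SE 0.12, adjusted p = 9.9e-06). All 3 were lower in each knockdown library than in each control library. *Dusp5* fell (-0.89) and *Dusp6* (-0.65), whereas *Ccnd1*, cyclin D1, rose by 0.68. *Egr1*, an early response factor, was at -0.55 and did not pass (adjusted p = 0.074), but with the replicate number as a block its adjusted p was 0.0323, after rescaling to the same sum 0.0391, and without shRNA-NC replicate 3 it was at -0.88 (adjusted p = 0.000513).

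Of 14 tested chemokines and cytokines 8 rose, 6 of them by 1 or more, and none fell, while 8 up and 1 down was the split after rescaling to the same sum. The 3 largest rises belong to neutrophil-attracting ligands of CXCR2 that lie in a cluster on chromosome 5. *Cxcl1* had 4.88, 5.26 and 2.37 FPKM in the shRNA-NC libraries and 26, 23.9 and 25.8 FPKM in the shRNA-*Ddx5* libraries (log2 fold change 2.39, SE 0.21, adjusted p = 5.8e-06). *Cxcl5* had 5.33, 5.12 and 4.66 FPKM in the shRNA-NC libraries and 42.2, 45.2 and 44.6 FPKM in the shRNA-*Ddx5* libraries (log2 fold change 2.9, SE 0.14, adjusted p = 1.4e-07). *Cxcl3* had 5.34, 3.05 and 1.96 FPKM in the shRNA-NC libraries and 72.2, 58.7 and 60.7 FPKM in the shRNA-*Ddx5* libraries (log2 fold change 3.93, SE 0.22, adjusted p = 4.1e-07). In each of these genes every knockdown library lay far above every control library. On chromosome 11, the monocyte attractants *Ccl2* and *Ccl7* rose by 1.6 and 1.1, and *Cxcl12*, a stromal chemokine on another chromosome, by 1.11.

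Promoters are shown for *Cxcl1* and *Cxcl3* because these members rose together and carry a form of the NF-kB site, the letters GGG, any 2 bases and then TTTCC. Each runs from 250 bases before to 50 bases after the RefSeq start in build GRCm38.p6, on the plus strand of chr5:90890995-90891294 for *Cxcl1* and chr5:90785851-90786150 for *Cxcl3*. Capitals mark the motif, which was searched on both strands.
Cxcl1 promoter: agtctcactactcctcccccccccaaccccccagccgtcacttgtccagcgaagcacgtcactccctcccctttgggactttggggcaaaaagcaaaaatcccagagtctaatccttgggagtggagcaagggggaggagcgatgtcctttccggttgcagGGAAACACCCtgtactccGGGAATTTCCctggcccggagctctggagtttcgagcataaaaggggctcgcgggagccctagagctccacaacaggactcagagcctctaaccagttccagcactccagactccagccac
Cxcl3 promoter: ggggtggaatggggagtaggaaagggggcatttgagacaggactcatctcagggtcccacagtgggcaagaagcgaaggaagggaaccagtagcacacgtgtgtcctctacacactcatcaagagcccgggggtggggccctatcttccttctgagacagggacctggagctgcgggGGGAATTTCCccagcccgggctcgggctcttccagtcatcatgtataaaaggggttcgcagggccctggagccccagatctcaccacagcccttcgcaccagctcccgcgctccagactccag
The plus-strand copy starts 71 bases before the start of *Cxcl1* and 73 bases before that of *Cxcl3*, and *Cxcl1* holds a second copy on the other strand. The motif is in 535 of 32851 promoters of the table (1.63%) and in 3 of the 9 promoters of the 8 tested chemokine and cytokine genes that matched, those of *Cxcl1*, *Cxcl3* and *Csf1*. The 2 promoters shown were picked for the motif, only 8 of the 14 tested genes of the list matched, and *Cxcl5* is not among the 3 genes with it. A link of the motif to the rises was not tested. A match of letters does not show that a factor was bound.

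Of 26 tested NF-kB subunits and feedback genes 4 rose and 8 fell, with a median of -0.14, and 1 up and 12 down after rescaling to the same sum.

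Complement genes had 6 of 9 tested members up and 0 down, and 4 up and 1 down when rescaled to the same sum. *Clu*, *C1s1* and *C1rl* stayed under 1 FPKM in every shRNA-NC library and passed the filter only through shRNA-*Ddx5*. Their calls, and so this count, are a description. After the rescaling *C1ra* and *Masp1* did not pass (adjusted p = 0.0913 and 0.254 by limma). *Clu*, clusterin, had 0.799, 0.965 and 0.83 FPKM in the shRNA-NC libraries and 4.2, 3.08 and 3.09 FPKM in the shRNA-*Ddx5* libraries (log2 fold change 1.25, SE 0.19, adjusted p = 2.7e-04), and *C1s1*, a protease of the first complement component, had 0.219, 0.571 and 0.622 FPKM in the shRNA-NC libraries and 2.19, 1.57 and 2.54 FPKM in the shRNA-*Ddx5* libraries (log2 fold change 1.08, SE 0.23, adjusted p = 0.0027). Interferon-stimulated genes had 13 of 28 tested members up and 4 down, and 8 up and 5 down when rescaled to the same sum. *Ifi27* had 14.2, 16.2 and 16.2 FPKM in the shRNA-NC libraries and 50.6, 44.1 and 48 FPKM in the shRNA-*Ddx5* libraries (log2 fold change 1.55, SE 0.16, adjusted p = 1.8e-05). *Ifitm3*, which blocks entry of viruses, had 70.9, 68.9 and 52.7 FPKM in the shRNA-NC libraries and 160.18, 146 and 181 FPKM in the shRNA-*Ddx5* libraries (log2 fold change 1.33, SE 0.17, adjusted p = 1.0e-04). *Xaf1* rose by 1.38 and *Samd9l* fell (-0.87), and well-known members such as *Ifit1* (0.08) and *Cxcl10* (0.08) did not pass.

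Genes that present antigen on MHC class I moved apart. Of 15 tested members 7 fell and 4 rose. *Tap1*, a transporter that carries peptides into the endoplasmic reticulum, had 6.5, 7.05 and 5.59 FPKM in the shRNA-NC libraries and 1.96, 2.4 and 2.07 FPKM in the shRNA-*Ddx5* libraries (log2 fold change -1.23, SE 0.13, adjusted p = 1.8e-05). Its partner *Tap2* had 12.6, 12.7 and 10.6 FPKM in the shRNA-NC libraries and 7.01, 4.05 and 4.9 FPKM in the shRNA-*Ddx5* libraries (log2 fold change -1.06, SE 0.16, adjusted p = 2.8e-04). The heavy chain gene *H2-Q4* had 12, 11.7 and 8.95 FPKM in the shRNA-NC libraries and 5.39, 4.36 and 4.73 FPKM in the shRNA-*Ddx5* libraries (log2 fold change -1.02, SE 0.13, adjusted p = 6.5e-05), and the classical heavy chains *H2-K1* and *H2-D1* fell (-0.7 and -0.6). The proteasome genes *Psmb10* and *Psme2* rose by 0.89 and 0.88. Heavy chains are near-identical to each other, so their separate values are uncertain.

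Several metabolic lists had a larger share of rises than the 26.4% of all genes. Cholesterol synthesis genes had 15 of 24 tested members up and 2 down (median 0.50). *Mvk*, mevalonate kinase, had 28.3, 23.5 and 17.3 FPKM in the shRNA-NC libraries and 62.8, 52.6 and 52.4 FPKM in the shRNA-*Ddx5* libraries (log2 fold change 1.27, SE 0.18, adjusted p = 2.0e-04). *Fdft1*, squalene synthase, had 4.11, 4.19 and 4.9 FPKM in the shRNA-NC libraries and 8.05, 7.85 and 8.81 FPKM in the shRNA-*Ddx5* libraries (log2 fold change 0.78, SE 0.09, adjusted p = 3.4e-05). *Dhcr7*, a late enzyme of the pathway, rose by 0.7. *Srebf2*, the regulator of the pathway, was at -0.02 and did not pass (adjusted p = 0.91).

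Glycolysis genes had 17 of 27 tested members up and 2 down (median 0.39), and 13 up and 4 down after rescaling to the same sum. *Pfkfb3*, which makes the activator of phosphofructokinase, had 4.48, 4.73 and 4.1 FPKM in the shRNA-NC libraries and 12, 13.7 and 14.8 FPKM in the shRNA-*Ddx5* libraries (log2 fold change 1.41, SE 0.09, adjusted p = 1.2e-06). *Pdk4*, a kinase that shuts pyruvate dehydrogenase, had 9.61, 9.53 and 11.8 FPKM in the shRNA-NC libraries and 26.1, 30.5 and 30.2 FPKM in the shRNA-*Ddx5* libraries (log2 fold change 1.41, SE 0.10, adjusted p = 1.9e-06). *Pgam1* and the glucose transporter *Slc2a3* each rose by 0.95, and *Ldhb* fell (-0.91). *Gapdh*, at 20.4, 27.8 and 6.52 FPKM in the shRNA-NC libraries and 12.6, 7.69 and 8.12 FPKM in the shRNA-*Ddx5* libraries, did not pass (adjusted p = 0.4), and since it has many processed copies its level is uncertain. Nucleotide synthesis genes had 17 of 26 tested members up and 1 down. *Tk1*, thymidine kinase, had 62.9, 57.1 and 43 FPKM in the shRNA-NC libraries and 122, 90.8 and 92.9 FPKM in the shRNA-*Ddx5* libraries (log2 fold change 0.9, SE 0.17, adjusted p = 0.0011), and *Dhodh* and *Rrm1* rose by 0.89 and 0.86. Of 51 genes of DNA replication and S phase 30 rose and 5 fell, and of 60 genes of G2 and mitosis 30 rose and 9 fell. After rescaling to the same sum these were 18 up and 6 down for S phase and 22 up and 10 down for mitosis.

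Nuclear-encoded subunits of oxidative phosphorylation had 43 of 80 tested members up and 1 down (median 0.40), and mitochondrial ribosomal proteins had 48 of 79 tested members up and 1 down (median 0.37). Rescaling to the same sum left 28 up and 3 down in the first and 32 up and 6 down in the second. Cytosolic ribosomal proteins, with a median length of 861 bases, had 4 of 84 tested members up and 8 down (median -0.08), and 3 up and 24 down after rescaling to the same sum. *Mrpl33* had 110.04, 114 and 145 FPKM in the shRNA-NC libraries and 267, 233 and 274 FPKM in the shRNA-*Ddx5* libraries (log2 fold change 1.07, SE 0.12, adjusted p = 2.8e-05), and *Mrps17* had 23.7, 22.5 and 30.6 FPKM in the shRNA-NC libraries and 54.9, 48.5 and 52.5 FPKM in the shRNA-*Ddx5* libraries (log2 fold change 1.0, SE 0.11, adjusted p = 3.3e-05). *Cox7a2l*, which takes part in joining respiratory complexes, chosen after its values were seen, was the 1 nuclear-encoded gene of the first list that fell, with 109, 101 and 183 FPKM in the shRNA-NC libraries and 44.2, 39.9 and 46.6 FPKM in the shRNA-*Ddx5* libraries (log2 fold change -1.52, SE 0.19, adjusted p = 8.1e-05).

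Of 12 tested protein genes of the mitochondrial genome 8 rose and none fell (median 0.68), 5 rose after rescaling to the same sum, and their summed share of FPKM was 3.23% to 3.96% in shRNA-NC and 3.76% to 5.20% in shRNA-*Ddx5* libraries, so that the shares overlapped. *CYTB*, cytochrome b of complex III, had 2369.7, 2678 and 1288 FPKM in the shRNA-NC libraries and 3420.4, 4087 and 4190.1 FPKM in the shRNA-*Ddx5* libraries (log2 fold change 0.95, SE 0.26, adjusted p = 0.011). *ND4*, a subunit of complex I, had 597, 641 and 439 FPKM in the shRNA-NC libraries and 821, 1048 and 1185 FPKM in the shRNA-*Ddx5* libraries (log2 fold change 0.87, SE 0.20, adjusted p = 0.0038). With no filter on low values the adjusted p of *CYTB* was 0.0523. *ND2* rose by 0.82 (adjusted p = 0.012) and *ND1* by 0.7 (adjusted p = 0.039). Without shRNA-*Ddx5* replicate 3 only 4 genes rose, with an adjusted p of 0.122 for *ND1* and 0.0539 for *ND2*. The adjusted p of *ND1* was 0.139 without shRNA-NC replicate 3, 0.0525 without shRNA-*Ddx5* replicate 1 and 0.0688 without shRNA-*Ddx5* replicate 2. With cytokines the median of this list was -0.23.

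**Figure D4:**
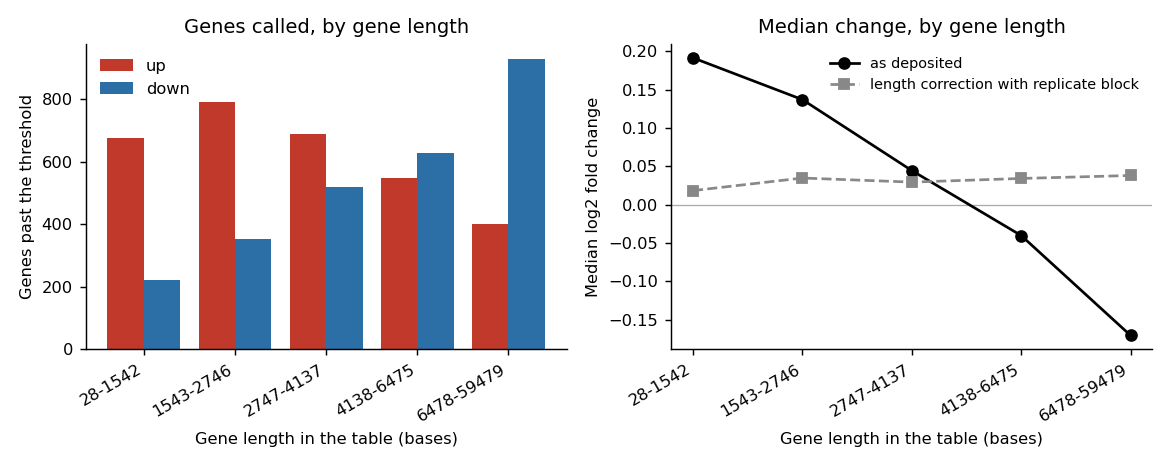
Tested genes in 5 equal groups by the gene length of the table, from 28 to 59479 bases. The left panel counts genes past an adjusted p of 0.05 up and down, and the right panel gives the median log2 fold change as deposited and after a length correction with the replicate number as a block. Calls turn from 676 up and 221 down in the shortest group to 399 up and 929 down in the longest.

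Gene length moved with the direction of change. In the shortest of 5 equal groups of genes 676 rose and 221 fell (median log2 fold change 0.19), and in the longest 399 rose and 929 fell (median -0.17). A fit with both a length correction and the replicate number as a block gave medians of 0.02 and 0.04. Several of the lists above hold short genes. The median length was 794 bases for the nuclear-encoded subunits of oxidative phosphorylation and 1587 bases for mitochondrial ribosomal proteins, against 3385 bases for all tested genes. In that fit the first list had 29 up and 2 down, the second 32 up and 5 down and the mitochondrial genome 2 up and 0 down. The block without the length correction gave 38 up and 1 down, 45 up and 1 down and 7 up and 0 down. Cholesterol synthesis (15 up and 2 down), glycolysis (16 up and 2 down), nucleotide synthesis (18 up and 1 down) and osteoblast genes (10 up and 2 down) differed from the uncorrected counts by at most 1 call in either direction.

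As deposited, falls were more frequent among chromatin genes and non-coding RNAs than among all tested genes, of which 22.5% fell. Of 118 tested genes of chromatin remodelling and Polycomb 47 fell and 12 rose (median -0.20), and of 35 Zbtb factors, which join a BTB domain to zinc fingers, 19 fell and 1 rose (median -0.35). These genes are long, with medians of 6308 and 5968 bases. With the length correction and the block the chromatin list had 12 up and 30 down and the Zbtb list 1 up and 12 down, and with the block alone 11 up and 47 down and 1 up and 17 down. Of 54 genes of the primary cilium 20 fell and 7 rose, 6 up and 13 down with the correction and the block and 6 up and 17 down with the block alone.

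Nuclear and host long non-coding RNAs fell although they are short in the table, with a median of 738 bases. Of 21 tested members 15 fell and none rose (median -0.61), and 14 fell with the length correction and the block. *Zfas1*, which hosts small nucleolar RNAs, had 224, 156 and 137 FPKM in the shRNA-NC libraries and 53.6, 43.5 and 41.6 FPKM in the shRNA-*Ddx5* libraries (log2 fold change -1.85, SE 0.17, adjusted p = 7.7e-06). *Malat1*, an abundant RNA kept in nuclear speckles, had 185, 162 and 181 FPKM in the shRNA-NC libraries and 50.2, 82.2 and 54.6 FPKM in the shRNA-*Ddx5* libraries (log2 fold change -1.51, SE 0.21, adjusted p = 1.7e-04). *Snhg6*, another snoRNA host, had 106, 105 and 246 FPKM in the shRNA-NC libraries and 49.6, 47.4 and 55.2 FPKM in the shRNA-*Ddx5* libraries (log2 fold change -1.45, SE 0.28, adjusted p = 0.0012). All 3 were lower in every knockdown library. *Snhg5* fell (-1.24) and *Epb41l4aos* (-1.47), while *Gas5*, a further host, was at -0.14 and did not pass (adjusted p = 0.44).

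Genes of the unfolded protein response and chaperones of the endoplasmic reticulum had 14 of 29 tested members up and 2 down (median 0.23), and 10 up and 4 down after rescaling to the same sum. Targets of ATF4, the factor of the integrated stress response, had 3 of 20 tested members up and 9 down (median -0.28). *Ddit3*, the factor CHOP, had 23.8, 24.5 and 20.1 FPKM in the shRNA-NC libraries and 10.5, 9.22 and 8.58 FPKM in the shRNA-*Ddx5* libraries (log2 fold change -1.19, SE 0.12, adjusted p = 1.5e-05). *Trib3*, a pseudokinase, had 18.3, 18 and 13.5 FPKM in the shRNA-NC libraries and 9.25, 6.83 and 6.65 FPKM in the shRNA-*Ddx5* libraries (log2 fold change -1.04, SE 0.16, adjusted p = 3.0e-04). *Slc7a11*, the cystine transporter, had 3.99, 4.43 and 3.72 FPKM in the shRNA-NC libraries and 0.92, 1.64 and 1.28 FPKM in the shRNA-*Ddx5* libraries (log2 fold change -1.16, SE 0.17, adjusted p = 2.1e-04). *Ppp1r15a* fell (-1.06) and *Atf3* (-1.01), whereas *Atf4* itself was at -0.12 and *Asns*, asparagine synthetase, at -0.24, both not past the threshold. Without shRNA-NC replicate 3, *Atf4* was at -0.40 (adjusted p = 0.0182), and *Asns* passed after rescaling to the same sum (adjusted p = 0.0269). Targets of p53 had 5 of 29 tested members up and 11 down and heat shock genes with their co-chaperones 4 of 27 tested members up and 9 down, and 4 up and 16 down and 3 up and 13 down after rescaling to the same sum.

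Glutathione and NRF2 genes were mixed, with 13 of 35 tested members up and 6 down, and their median of 0.14 was -0.02 after rescaling to the same sum. *Gstm2*, a glutathione transferase, had 0.235, 0.525 and 0.129 FPKM in the shRNA-NC libraries and 9.67, 6.98 and 6.51 FPKM in the shRNA-*Ddx5* libraries (log2 fold change 2.74, SE 0.19, adjusted p = 1.2e-06). *Gpx7*, a peroxidase of the endoplasmic reticulum, had 3.72, 3.21 and 3.95 FPKM in the shRNA-NC libraries and 12.8, 12.1 and 11.5 FPKM in the shRNA-*Ddx5* libraries (log2 fold change 1.51, SE 0.09, adjusted p = 5.4e-07). *Gclc*, an enzyme of glutathione synthesis, fell (-0.48). Among 29 apoptosis genes 12 rose and 5 fell, but 7 up and 5 down after rescaling to the same sum. *Cycs*, cytochrome c, had 24.4, 21.1 and 19.2 FPKM in the shRNA-NC libraries and 55.1, 42.7 and 50.3 FPKM in the shRNA-*Ddx5* libraries (log2 fold change 1.16, SE 0.11, adjusted p = 1.4e-05). Of 10 genes of the Myc network 4 rose and 2 fell, with *Mlx* at 0.95, *Mga* at -1.01 and Myc itself at 0.12 (adjusted p = 0.3).

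Some genes were at the counting floor in one line. A floor of 3 fragments per library was used, and these genes passed the filter mainly through the other group, so they are given as a description. In shRNA-NC 17 genes had at most 3 fragments in every library and at least 1 FPKM in every shRNA-*Ddx5* library, 6 of them shorter than 200 bases. *Fabp4*, a fatty acid binding protein of adipocytes, was listed at 0 in all 3 shRNA-NC libraries and had 1.02, 1.24 and 1.31 FPKM in the shRNA-*Ddx5* libraries. *Ly6c1*, *Ifi44*, an interferon-stimulated gene, and *Clec4b1*, a lectin of myeloid cells, were at the floor in shRNA-NC too, as were 4 histone genes. In shRNA-*Ddx5* 22 genes were at the floor, but 20 of these were under 200 bases long, a length at which few fragments set the FPKM. The other 2 were *Pate8*, of the prostate and testis expressed family, with 3.38, 2.84 and 2.42 FPKM in shRNA-NC and 0 in all shRNA-*Ddx5* libraries, and *Prxl2a*, a peroxiredoxin-like protein, with 3.52, 2.73 and 3.43 FPKM in the shRNA-NC libraries and 0.0894, 0 and 0.0272 FPKM in the shRNA-*Ddx5* libraries. Against the floor of 3 fragments per library, the mean level in shRNA-NC was at least 39.1-fold higher for *Prxl2a* and at least 5.78-fold higher for *Pate8*, and that of *Fabp4* in shRNA-*Ddx5* at least 6.18-fold higher.

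**Figure D5:**
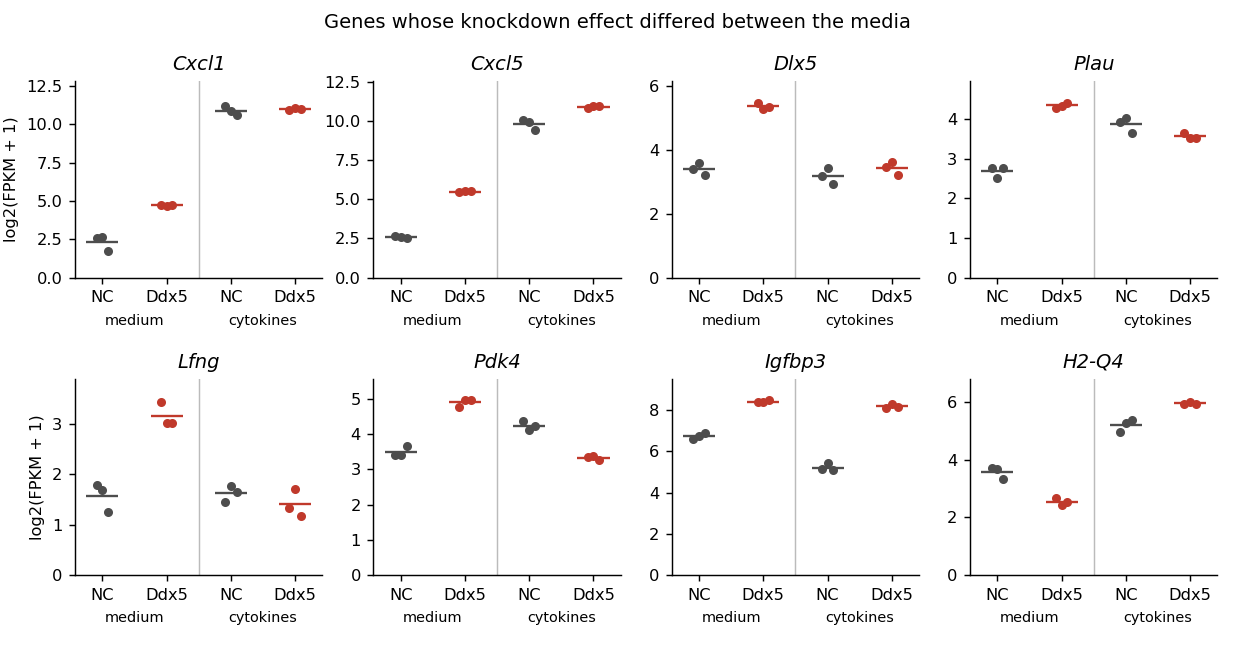
Log2(FPKM + 1) of 8 genes in the 4 groups of the series, 3 libraries each, with the bar at the group mean. The genes were chosen for a knockdown effect in medium that differed from that with cytokines, so the pattern is a description. Cxcl1 differed between the lines in medium and lay level between them with cytokines, and H2-Q4 fell in medium and was higher with cytokines.

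The effect in medium was not the same as the effect with cytokines for a number of these genes. Of 166 named genes for which the difference was read, 39 passed the threshold on the interaction (adjusted p under 0.05 by limma), against 7.33% of all tested genes. Most of the named genes were chosen for their change in medium, so nothing is read from that count. The 166 leave out part of the named genes. *Cxcl1* differed by 2.39 in medium and by 0.13 with cytokines, a difference of 2.27 (adjusted p = 9.6e-04). *Plau* was at 1.66 in medium and -0.31 with cytokines, a difference of 1.97 (adjusted p = 8.7e-05). *Dlx5* was at 1.97 and 0.24, a difference of 1.73 (adjusted p = 6.1e-04). For these 3 genes the value with cytokines lay nearer to 0. *Pdk4* turned from 1.41 to -0.91, a difference of 2.32 (adjusted p = 1.5e-05), and *H2-Q4* from -1.02 to 0.74, a difference of -1.76 (adjusted p = 2.9e-04). *Igfbp3*, in contrast, stood further apart with cytokines, at 2.96 against 1.65 in medium, a difference of -1.31 (adjusted p = 6.1e-04).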

How the data were processed

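RNA of 12 ATDC5 libraries was sequenced, and a table of FPKM per gene was deposited by the authors, with gene lengths and coordinates in GRCm39. The authors' submitted processing notes name HISAT2 2.0.5, featureCounts 1.5.0-p3, DESeq2 1.20.0, GATK 3.7 and the build mm10, while the coordinates lie in GRCm39, so the build of alignment is uncertain. Whether counting used strand is not given in the sources used here, so overlapping and antisense genes cannot be told apart. The deposited FPKM values are whole multiples of 1 fragment for 100% of values (within 0.01), and the recovered fragments gave the depths, 14119199 to 19276520 in the 6 medium libraries. The library total behind the authors' FPKM was 1.07, 1.08 and 1.06 times the sum of recovered fragments in the shRNA-NC libraries. In the shRNA-*Ddx5* libraries it was 0.988, 1.02 and 0.986 times that sum. The FPKM thus carries a scaling between samples that differs between the groups, and a smaller total raises FPKM. The sum of FPKM was 364104 to 383398 in shRNA-NC and 388825 to 440463 in shRNA-*Ddx5* libraries.

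Genes with at least 1 FPKM in at least 3 of the 6 medium libraries were tested on log2(FPKM + 1) by limma 3.58.1 (R 4.3.3) with a mean-variance trend, all 4 groups in 1 fit (12 libraries, 8 residual degrees of freedom), two-sided, with Benjamini-Hochberg adjusted p over all tested genes. The threshold was 0.05. A fold change on this scale understates that of low genes. Tables and figures were made with Python 3.11.15, pandas 2.3.3, numpy 2.4.6 and matplotlib 3.10.9, and the fit was tested on simulated data.

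The members and gene lists were chosen with earlier results of these data known. Genes named are *Ddx5* and *Ddx17*, the 12 largest rises and falls in log2 fold change and the 10 in mean FPKM past the threshold without overlap (leaving out fibrillar collagens, histones, zinc fingers and unnamed loci), up to 6 members of each list described and its defining genes, and genes with at most 3 fragments in every library of one group and at least 1 FPKM in every library of the other. Named after their values were seen were *Mir3064*, *Tpm1*, *Prrx1*, *Postn*, *Adam9*, *Adam15*, *Bmpr2*, *Acvr1b*, *Igf1r*, *Dusp6*, *H2-K1*, *H2-D1*, *Cox7a2l*, *Gclc*, *Egr1*, *Ifit1*, *Cxcl10*, *Srebf2*, *Gapdh*, *Gas5*, *Atf4*, *Asns* and Myc. Floors cover counting error only. Values of some genes are not reported here. RefSeq promoter and microRNA sequences are of build GRCm38.p6. Alternatives were a pseudocount of 0.1, other filters, 3 other scalings, the 6 medium libraries alone, no trend, the replicate number as a block with and without a length correction, each library left out and, added after the data were seen, voom weights on the recovered fragments.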

Additional observations from a re-analysis of the deposited data

Results flagged for a closer look

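Of 166 named genes whose knockdown effect in medium was compared with the effect with cytokines, 39 differed past an adjusted p of 0.05 by limma on the interaction, against 7.33% of all tested genes. The values in parentheses are the log2 fold change in medium minus that with cytokines. The libraries with cytokines were used only for this comparison and for the spread, and no explanation was tested. The 166 are *Ddx5*, *Ddx17*, the largest rises and falls, the genes at the counting floor and the largest changes of each list described. Other named genes were left out, so the lists below are not complete. Among those left out, *Ccnd1* was at 0.68 in medium and -0.99 with cytokines (adjusted p = 6.7e-04 by limma on the interaction). *Acvr1b* was at -1.03 and 0.35 (adjusted p = 8.7e-05). Most of these genes were chosen for a large change in medium, and some passed the filter through 1 medium group, which favours a smaller effect with cytokines, so the counts by direction are a description only.

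In 24 genes the effect had the same sign in both media and was smaller with cytokines. Those that rose in medium were *Cdon* (0.466), *Clec11a* (0.713), *Clec4b1* (0.85), *Cxcl1* (2.27), *Cxcl3* (1.42), *Cxcl5* (1.79), *Dlx5* (1.73), *Fzd5* (0.867), *Gm39095* (1.49), *Gpx7* (0.521), *Pcdh18* (0.622), *Pfkfb3* (0.707), *Pth1r* (0.546), *Sp7* (1.19), *Tmtc2* (1.12), *Ttyh3* (1.32) and an unnamed locus of 1016 bases (1.01). Those that fell in medium were *Bhlhb9* (-0.637), *Enpp5* (-0.78), *Foxs1* (-1.16), *Lox* (-0.678), *Ntrk3* (-0.984), *Prxl2a* (-0.75) and *Tap1* (-1.18).

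In 4 genes the effect had the same sign and was larger with cytokines, namely *Ddx17* (-0.494), *Dusp4* (1.35), *Ifi44* (-1.05) and *Igfbp3* (-1.31).

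In 11 genes the fitted effect had opposite signs in the 2 media. With cytokines the effect was small for *Hspb1* (-0.0612), *Itga3* (-0.0432) and *Gm23747* (0.139), so no reversal is read for them. Those that rose in medium were *Hspb1* (1.25), *Itga3* (0.87), *Lfng* (1.79), *Mir7664* (2.89), *Pdk4* (2.32) and *Plau* (1.97). Those that fell in medium were *Dgat2* (-1.17), *Gm23747* (-1.71), *Gm26347* (-1.31), *H2-Q4* (-1.76) and *Snord98* (-2.64). *Gm23747*, *Gm26347*, *Gm39095*, *Mir7664* and *Snord98* are shorter than 200 bases, so few fragments set their values.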

How the results depend on the processing

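The counts of genes up, down, up by 1 or more and down by 1 or more stayed within 1.5 times of 3099, 2648, 421 and 349 under the alternatives, with 4 exceptions. Genes down by 1 or more were 674 with a pseudocount of 0.1, 530 after rescaling to the same sum of FPKM and 893 with voom weights on the recovered fragments, an alternative chosen after seeing the data, and genes up by 1 or more were 271 when 1 FPKM was required in all 6 libraries, which tested fewer genes (10375). The cause of the other 3 was not tested. The split of up against down was 2115 to 3556 after rescaling to the same sum, 2449 to 3391 with voom and 2770 to 2851 after quantile normalization. With each library left out in turn, 2554 to 3029 genes rose, 2226 to 2596 fell, 407 to 464 rose by 1 or more and 282 to 442 fell by 1 or more. With the replicate number as a block, 2894 rose and 2502 fell (422 and 352 by 1 or more), 3047 and 2546 in the 6 medium libraries alone (424 and 356), and 2927 and 2300 with a length correction added (395 and 317). Same-numbered libraries had correlations of deviations of 0.482, 0.0544 and 0.355 for replicates 1, 2 and 3. Pairs of different number ran from -0.401 to 0.197, the highest being shRNA-*Ddx5* replicate 2 with shRNA-NC replicate 3. Whether same-numbered libraries were handled together cannot be told from these values, so fits with and without the block are given. Over all alternatives the calls of named genes held 4745 times, were lost 140 times, were gained 35 times and never turned. Single hairpins, 3 libraries a group and short genes with few fragments limit these values.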
